A study of Mus musculus with 4 samples.

Results

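The ETS transcription factors expressed in endothelium were read out in endothelial cells isolated from the hearts of adult mice. The members were 10 genes, Erg, Fli1, Ets1, Ets2, Elk3, Etv6, Elf1, Elf2, Elf4 and Gabpa. Every non-control probe whose accession belongs to them in RefSeq was taken, which gave 19 of the 41174 probes on the array and 10 of 18353 genes with a symbol. Each gene had 1 to 3 probes, and each probe had 1 spot per array. The study has 4 arrays, 1 per sample. The labels give 2 control samples, from wild type mice, and 2 samples named G2-EC-KO, from mice with a Gata2 knock out. The allele, the Cre driver, the number of animals behind a sample and any treatment are not given in the sources used here. Nothing in the labels says that samples of a group came from separate mice, so the p-values may cover technical spread alone in G2-EC-KO.

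Control replicate 2 stood apart from the other arrays in sex-linked transcripts. It was the only array on which Xist, the RNA of the inactive X chromosome of females, was not well above background, at 4 of 4 probes, and the only one on which the Y-linked Ddx3y, Eif2s3y, Kdm5d and Uty were. Its RNA thus carried the male pattern and that of the other 3 arrays the female pattern, so the 2 controls were not repeats of 1 RNA. Sex differed within control and was not balanced between the groups, which touches every control gap, SD and change given here. Without control replicate 2 the Erg change was -0.27, those of Elf4 -0.56 and -0.50, those of Elf1 -0.21 and -0.46 and that of Elf2 -0.14. Over the 19 probes 9 were then higher and 10 lower. The part of sex in the other values was not tested.

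ETS factors share a winged helix-turn-helix domain that binds DNA around the bases GGAA. Endothelial enhancers and promoters carry many such sites, and several family members are needed to form vessels and keep endothelial identity. The family holds activators such as Erg, Fli1, Ets1 and Ets2, the repressors Elk3 and Etv6, the Elf branch, and Gabpa, which acts with a Gabpb partner at many housekeeping and mitochondrial promoters. GATA2 itself works beside ETS factors, among them FLI1 and ERG, at blood and endothelial enhancers.

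Gata2, the gene named in the labels, was not lower on the arrays labelled G2-EC-KO. On a scale of log2 units relative to each array's 75th percentile, A_51_P516625 read 1.85 and 2.17 in control and 2.16 and 2.46 in G2-EC-KO. The groups overlapped, and the difference was 0.30 (SE 0.18), with an adjusted p of 0.584 (limma). At A_52_P233441 it was 0.17 (SE 0.14), with an adjusted p of 0.650 (limma). With 1 array left out the differences ran from 0.14 to 0.45 and from 0.067 to 0.28. Which part of the gene was deleted and where the probes lie in it is not given in the sources used here, and a probe that lies outside the deletion is no check. Every direction given for G2-EC-KO therefore rests on the labels.

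Elf4 and Erg read lower on both G2-EC-KO arrays than on both control arrays, by 0.54 and 0.36 on the log2 scale at their brightest probes, while Fli1, Ets1 and Ets2 overlapped between the groups. Elf2 was lower by 0.25, also without overlap, and Gabpa and Etv6 were higher without overlap at their brightest probes. In all, the groups did not overlap at the brightest probe for 5 of the 10 genes, against 47.2% of all genes tested. Elf1 was lowest on G2-EC-KO replicate 2, and at its brightest probe the change of -0.23 was 0.084 without that array. At its other probe the groups did not overlap, and the change of -0.52 was -0.26 without that array. No member passed an adjusted p of 0.05 (limma with Benjamini-Hochberg adjustment over all 26894 probes tested). That was 0 of 19 probes, against 0.00372% of all probes tested. At an unadjusted p under 0.05 there were 3 member probes, all lower, against 9.61% of all probes tested, 4.96% higher and 4.65% lower. The lowest adjusted p of a member was 0.387. Log2 changes of the 19 probes ran from -0.54 to 0.19, with 6 higher and 13 lower in G2-EC-KO, where 50.1% of all probes tested were higher.

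Promoter windows are shown for the members on which these differences turn, Elf4 and Erg, and for Gabpa, whose brightest probe had the most positive change of the 19. Each is the 250 bases before an annotated start, from RefSeq on build GRCm38.p6, read 5′ to 3′ on the strand of the gene. Capitals mark GGAA on either strand, so that TTCC is its reverse complement, and any GATA word on either strand, which here means AGATAA, a form ending in AGATAG, or the same with T as the first base (TGATAA, or else TGATAG). Elf4 and Erg lie on the minus strand and Gabpa on the plus strand. The Elf4 windows are chrX:48463133-48463382 and chrX:48454320-48454569, the Erg windows chr16:95586594-95586843, chr16:95530366-95530615 and chr16:95459349-95459598, and the Gabpa window chr16:84834874-84835123.
Elf4 start 1: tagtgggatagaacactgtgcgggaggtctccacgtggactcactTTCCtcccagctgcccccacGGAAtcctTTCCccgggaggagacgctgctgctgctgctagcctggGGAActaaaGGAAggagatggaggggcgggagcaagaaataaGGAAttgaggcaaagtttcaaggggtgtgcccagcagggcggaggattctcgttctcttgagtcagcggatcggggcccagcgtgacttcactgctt
Elf4 start 2: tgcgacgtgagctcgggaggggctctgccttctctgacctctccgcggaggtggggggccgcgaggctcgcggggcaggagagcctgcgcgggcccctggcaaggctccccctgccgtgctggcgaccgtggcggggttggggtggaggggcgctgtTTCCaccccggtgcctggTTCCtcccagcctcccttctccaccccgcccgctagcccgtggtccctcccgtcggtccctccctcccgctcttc
Erg start 1: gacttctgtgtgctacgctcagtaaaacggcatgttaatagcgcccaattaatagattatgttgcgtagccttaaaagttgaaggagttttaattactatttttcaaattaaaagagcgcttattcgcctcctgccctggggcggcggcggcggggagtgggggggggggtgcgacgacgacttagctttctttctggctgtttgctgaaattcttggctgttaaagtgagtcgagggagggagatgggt
Erg start 2: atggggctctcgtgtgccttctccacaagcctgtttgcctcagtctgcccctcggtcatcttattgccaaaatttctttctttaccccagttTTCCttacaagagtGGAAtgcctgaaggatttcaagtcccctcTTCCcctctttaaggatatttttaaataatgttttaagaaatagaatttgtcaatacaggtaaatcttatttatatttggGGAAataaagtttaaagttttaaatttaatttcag
Erg start 3: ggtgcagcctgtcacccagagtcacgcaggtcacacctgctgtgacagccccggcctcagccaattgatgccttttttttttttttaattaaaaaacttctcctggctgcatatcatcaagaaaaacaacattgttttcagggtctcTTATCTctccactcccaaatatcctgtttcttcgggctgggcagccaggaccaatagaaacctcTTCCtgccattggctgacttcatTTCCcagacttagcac
Gabpa start 1: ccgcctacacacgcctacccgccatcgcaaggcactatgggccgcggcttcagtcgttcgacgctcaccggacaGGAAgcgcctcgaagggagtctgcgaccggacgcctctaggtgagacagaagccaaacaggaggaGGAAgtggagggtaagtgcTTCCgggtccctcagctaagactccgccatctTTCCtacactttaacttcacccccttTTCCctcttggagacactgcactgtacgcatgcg

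The first Elf4 window holds 6 GGAA, as does an Elf2 window that is not shown, and 8.69% of all 32851 windows of this length hold 6 or more. The second Elf4 window holds 2. The Erg windows hold 0, 4 and 2, and 6.55% of all windows hold 0. The Gabpa window holds 5, and 18.0% of all windows hold 5 or more. Of the 5 in the Gabpa window, 1 lies within CCGGAA, a word found in 12.0% of all windows, and 2 within AGGAAG, found in 29.5%. These longer words contain GGAA and so overlap with it. Among 13 windows of 8 members with an entry, 11 held GGAA, against 93.4% of all windows, with a median of 3. A GATA word was present in 1 of the 13, the third Erg window, as TTATCT at position -103 from the start, and in 26.5% of all windows. A match is a description of these letters and not of a bound site, and a window without one says nothing of the factor.

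Levels are given as log2 units above or below the 75th percentile of each array, and changes as G2-EC-KO minus control on that scale. Levels of different probes cannot be compared, because probes differ in how well they bind. All 19 probes were well above background on all 4 arrays.

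Erg, an activator needed for vascular stability, read 0.77 and 0.96 in control against 0.55 and 0.46 in G2-EC-KO at A_51_P418519. Both G2-EC-KO arrays lay below both control arrays. The control mean was 0.87 ± 0.14 and the G2-EC-KO mean 0.51 ± 0.069 (SD, n = 2 each). The log2 change was -0.36 (SE 0.13, 95% confidence interval, CI, -0.70 to -0.030), 0.778 times the control level, with an unadjusted p of 0.0383 and an adjusted p of 0.510 (limma). The gap between the 2 control arrays was 0.19, smaller than the distance between the group means. Leaving out 1 array moved the change between -0.46 and -0.27.

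Fli1, the closest relative of Erg, overlapped between the groups at both probes. At A_52_P821 it read 3.31 and 3.51 in control and 3.49 on each G2-EC-KO array, for a difference of 0.078 (SE 0.12, 95% CI -0.25 to 0.41; limma, adjusted p = 0.816). At A_51_P370600 it read 3.24 and 3.39 in control and 3.30 and 3.23 in G2-EC-KO, with a change of -0.048 (SE 0.12, 95% CI -0.36 to 0.26; limma, adjusted p = 0.883). Both G2-EC-KO levels of the first probe lay between the control levels. The difference between Erg and Fli1 was not tested.

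Ets1 and Ets2, activators that respond to growth factor signalling through the MAP kinases, also overlapped. Ets1 at its brightest probe, A_52_P194250, read 4.01 and 4.19 in control and 4.13 and 4.18 in G2-EC-KO. Its log2 change was 0.055 (SE 0.12, 95% CI -0.26 to 0.37; limma, adjusted p = 0.870), and the other probes, A_52_P232830 and A_52_P258291, gave -0.026 (SE 0.13) and -0.094 (SE 0.13). The last of these read 1.37 and 1.46 in control against 1.43 and 1.21, so that G2-EC-KO replicate 2 alone lay below control. Ets2 at A_52_P658122 read 5.34 and 5.66 in control and 5.49 and 5.45 in G2-EC-KO. Both G2-EC-KO values fell inside the range of the controls, which differed from each other by 0.32. The change was -0.031 (SE 0.15, 95% CI -0.42 to 0.36; limma, adjusted p = 0.943).

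**Figure D1:**
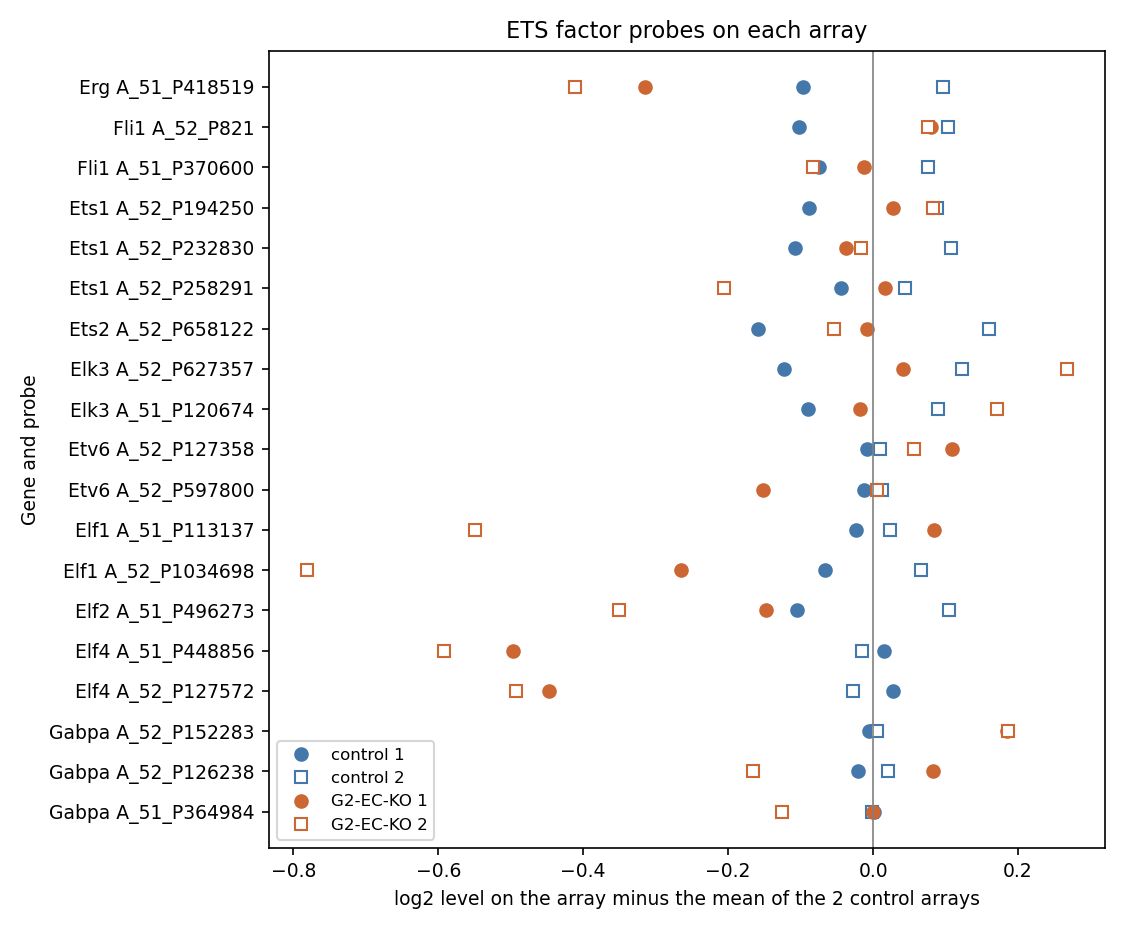
Level of each of the 19 ETS factor probes on each of the 4 arrays, as the log2 level minus the mean of the 2 control arrays (horizontal axis), with a row per probe. Circles are replicate 1 and squares replicate 2, in blue for control and orange for G2-EC-KO, with no error bars. Both orange points lie to the left of the blue points for Erg, Elf2, both Elf4 probes and A_52_P1034698 of Elf1. They lie to the right for A_52_P127358 of Etv6 and A_52_P152283 of Gabpa. The lowest Elf1 points are the squares of G2-EC-KO replicate 2.

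The repressors Elk3 and Etv6 had changes whose 95% CI included 0 at every probe (limma). Elk3, a ternary complex factor that binds with serum response factor and represses until it is phosphorylated, read 4.51 and 4.75 in control and 4.67 and 4.90 in G2-EC-KO at A_52_P627357. The highest value was on G2-EC-KO replicate 2 and the lowest on control replicate 1, and the groups overlapped. The log2 change was 0.15 (SE 0.15, 95% CI -0.25 to 0.56; limma, adjusted p = 0.703), and 0.077 (SE 0.13) at A_51_P120674. With 1 array left out the first ran from 0.031, without control replicate 1, to 0.28, without control replicate 2. Etv6, a repressor with a pointed domain through which it forms polymers, read 0.028 and 0.046 in control and 0.15 and 0.093 in G2-EC-KO at A_52_P127358. The groups did not overlap there, but the change was small, 0.082 (SE 0.11, 95% CI -0.20 to 0.36; limma, adjusted p = 0.772). The other Etv6 probe, A_52_P597800, gave -0.074 (SE 0.12), opposite in sign.

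Elf4, an Elf branch factor known for control of quiescence in blood and lymphoid cells and also present in endothelium, had the smallest p of the members, and both of its probes read lower in G2-EC-KO. At A_51_P448856 it read -2.96 and -2.99 in control and -3.47 and -3.56 in G2-EC-KO. At A_52_P127572 it read -3.56 and -3.62 in control and -4.04 and -4.08 in G2-EC-KO. At both probes the groups were apart by more than either group's own gap, which was at most 0.096.

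The Elf4 log2 changes were -0.54 (SE 0.11, 95% CI -0.83 to -0.26) and -0.47 (SE 0.11, 95% CI -0.75 to -0.19), or 0.686 and 0.722 times control. The unadjusted p was 0.00526 and 0.00853 and the adjusted p 0.387 and 0.390 (limma). Both probes read the same 4 RNA samples and are not replicates of each other. The Elf4 signals were low, with processed values of 182 and 182 in control and 116 and 99.9 in G2-EC-KO at the first probe and 120 and 117 against 78.6 and 69.9 at the second. At such signals the background correction matters, and with normexp correction the changes were -0.31 and -0.22, with an adjusted p of 0.447 and 0.494 (limma). Elf4 lies on the X chromosome. Without control replicate 2, the array with the male pattern, the Elf4 changes were -0.56 and -0.50.

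Elf1, a factor of blood and vascular genes, was lowest on G2-EC-KO replicate 2 at both probes, and the groups overlapped at only 1 of them. At A_51_P113137 it read 3.04 and 3.08 in control, 3.14 on G2-EC-KO replicate 1 and 2.51 on G2-EC-KO replicate 2. The first G2-EC-KO array was the highest of the 4 and the second the lowest. At A_52_P1034698 the values were -0.26 and -0.13 in control and -0.46 and -0.98 in G2-EC-KO, with the same array lowest. Both G2-EC-KO arrays lay below both control arrays at that probe. The log2 changes were -0.23 (SE 0.23, 95% CI -0.85 to 0.39; limma, adjusted p = 0.710) and -0.52 (SE 0.20, 95% CI -1.06 to 0.018; limma, adjusted p = 0.528). Without G2-EC-KO replicate 2 they were 0.084 and -0.26, so that the first turned its sign. Without G2-EC-KO replicate 1 they were -0.55 and -0.78.

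Elf2, a close relative of Elf1, read 1.59 and 1.80 in control and 1.55 and 1.35 in G2-EC-KO at A_51_P496273. The groups were just apart, with G2-EC-KO replicate 1 close to control replicate 1. The log2 change was -0.25 (SE 0.14, 95% CI -0.62 to 0.13; limma, adjusted p = 0.577). It was -0.15 without G2-EC-KO replicate 2 and -0.14 without control replicate 2.

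Gabpa, the DNA-binding subunit of GA-binding protein, had probes that disagreed. The brightest, A_52_P152283, read 0.90 and 0.91 in control and 1.09 on both G2-EC-KO arrays, so that each group was tight and the groups were apart. Its log2 change was 0.19 (SE 0.10, 95% CI -0.089 to 0.46; limma, adjusted p = 0.577), where limma moderates the small spread of these 4 values towards that of all probes. The other probes overlapped between groups, with -0.042 (SE 0.13) at A_52_P126238 and -0.063 (SE 0.11) at A_51_P364984. Its partners, which carry the activation domain, are encoded by Gabpb1 and Gabpb2. Gabpb1 read 0.27 and 0.33 in control and 0.23 and 0.11 in G2-EC-KO, with a change of -0.13 (SE 0.11; limma, adjusted p = 0.680). Gabpb2 had a change of -0.12 (SE 0.15; limma, adjusted p = 0.772).

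**Figure D2:**
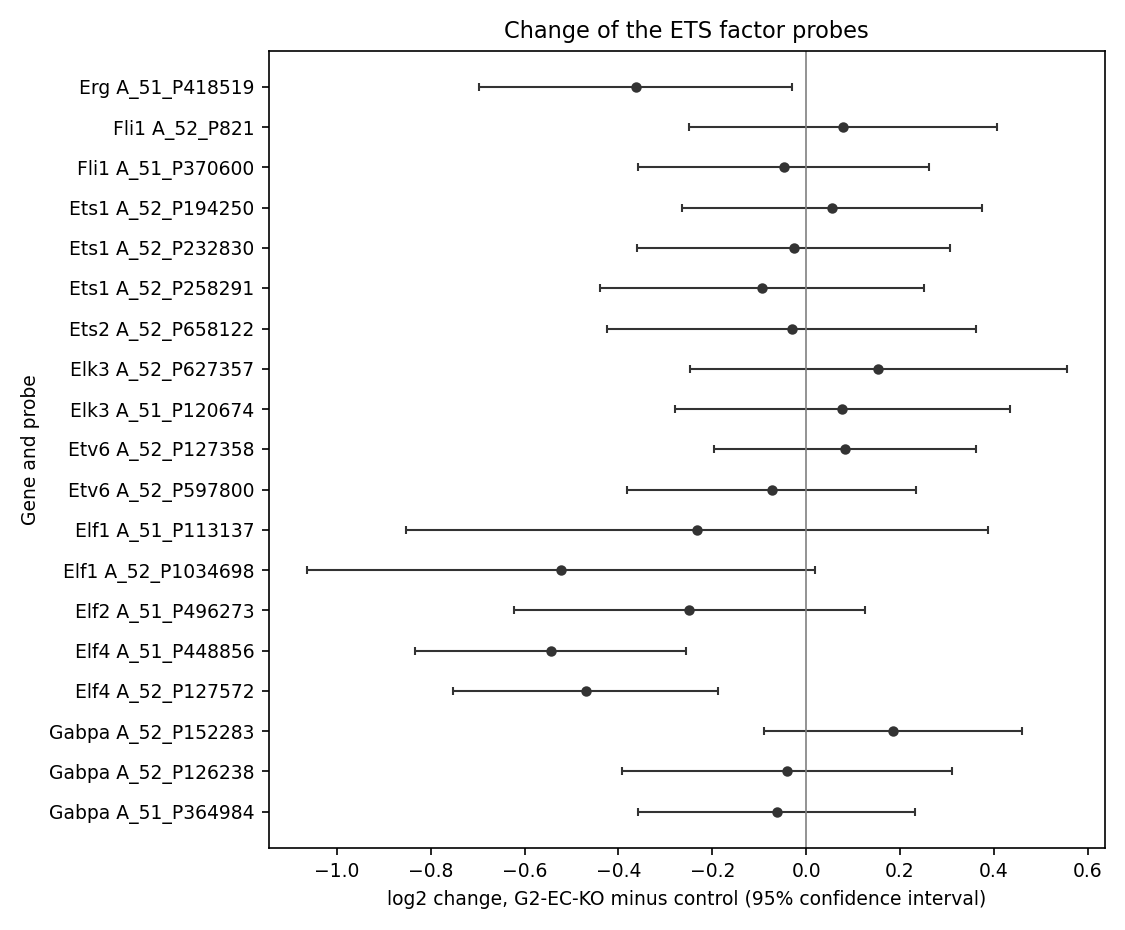
Log2 change of each ETS factor probe, G2-EC-KO minus control (horizontal axis), with points for limma estimates and bars for unadjusted 95% confidence intervals, 2 arrays per group. The intervals of Erg and of both Elf4 probes lie below 0, and those of the other 16 probes include 0.

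Across the 10 genes at the brightest probe of each, 5 were higher and 5 were lower, and the median log2 change was 0.012. An unadjusted p under 0.05 was reached by 0 of the 10 in the higher direction and 2 in the lower, Erg and Elf4, against 8.20% of all genes tested, 6.19% higher and 2.0% lower. None of the 10 passed the adjusted threshold, and 0% of all genes did at their brightest probe, with the adjustment over all 26894 probes tested (limma). Over all 13628 genes tested at their brightest probe the median was 0.043, and 58.6% were higher. The groups did not overlap at 7 of the 19 probes, or 36.8%, against 46.4% of all probes tested. Of these 7, 2 were higher and 5 lower, against 24.1% and 22.3% of all probes. The members thus shared no direction, and the count of probes without overlap was no greater than that of the array as a whole. The sign differed between probes of the same gene for 4 genes, Fli1, Ets1, Etv6 and Gabpa. Control replicate 2 was the highest array for 5 of the 10 genes and control replicate 1 the lowest for 6, while G2-EC-KO replicate 2 was the lowest for the other 4.

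Of 16 further ETS family genes, 15 had a probe and 9 were well above background on at least 2 arrays. None of the 9 passed the adjusted threshold (limma). Of the 9, 4 were higher and 5 lower, where 58.6% of all genes were higher, and the median log2 change was -0.054 against 0.043. At an unadjusted p under 0.05 (limma), 1 was higher and 1 lower, against 6.19% and 2.0% of all genes. With 1 array left out 2 to 5 of the 9 were higher. Etv4, a member of the PEA3 branch downstream of receptor tyrosine kinases, read -3.89 and -3.85 in control and -3.33 and -3.28 in G2-EC-KO. Both G2-EC-KO arrays were higher, with a change of 0.57 (SE 0.11; limma, adjusted p = 0.387), and 0.38 with normexp correction. Elk4, a ternary complex factor like Elk3, read -1.60 and -1.56 in control and -1.83 and -1.95 in G2-EC-KO, a change of -0.31 (SE 0.11; limma, adjusted p = 0.514). Etv3, a repressor, read 0.31 and 0.64 in control, 0.20 on G2-EC-KO replicate 1 and -0.62 on replicate 2. Its change was -0.68 (SE 0.31; limma, adjusted p = 0.546). Leaving out G2-EC-KO replicate 2, the same array on which Elf1 was lowest, gave -0.27. Spi1, which encodes the myeloid factor PU.1, and Etv2, which acts in embryonic endothelial progenitors, were not well above background on at least 2 arrays and were not tested.

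Partners and kinases of ETS factors were also followed, with 15 of 16 genes measured. None passed the adjusted threshold and 0 had an unadjusted p under 0.05 (limma), with 4 higher and 11 lower, or 26.7% higher against 58.6% of all genes, and a median of -0.085 against 0.043. Gata2, the gene named in the labels, is in this list and was among the 4 that were higher. Foxc2, a forkhead factor that acts with ETS factors at endothelial enhancers, read 0.95 and 1.0 in control, 0.94 on G2-EC-KO replicate 1 and 0.37 on replicate 2. Its change was -0.32 (SE 0.22; limma, adjusted p = 0.613). Leaving out G2-EC-KO replicate 2 gave -0.034. The corepressor gene Ncor1, whose product Etv6 can recruit, had a change of -0.15 (SE 0.11; limma, adjusted p = 0.617).

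Endothelial genes known as targets of Erg and its relatives did not share a direction. Of 28 such genes, 18 were higher in G2-EC-KO, 64.3% against 58.6% of all genes, and 10 were lower; their median was 0.035. None passed the adjusted threshold (limma), and 2 of 28 had an unadjusted p under 0.05, both lower, against 8.20% of all genes, 6.19% higher and 2.0% lower. Without control replicate 1 the split was 13 higher and 15 lower, and without either G2-EC-KO array it was 14 and 14. Nos3, the endothelial nitric oxide synthase, read 4.88 and 4.80 in control and 4.49 and 4.20 in G2-EC-KO. Its G2-EC-KO arrays were both lower, with a change of -0.50 (SE 0.14; limma, adjusted p = 0.464). Notch1, a receptor of arterial specification, read 1.77 and 2.06 in control and 1.58 and 1.29 in G2-EC-KO, a change of -0.48 (SE 0.17; limma, adjusted p = 0.512).

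The paired receptor genes Tek and Tie1 had changes of -0.24 (SE 0.11; limma, adjusted p = 0.548) and -0.22 (SE 0.11; limma, adjusted p = 0.549). Cdh5, which encodes VE-cadherin and is a well-known Erg target, had a change of 0.053 (SE 0.13; limma, adjusted p = 0.880), and its groups overlapped. The groups did not overlap at 13 of the 28, 6 higher and 7 lower, which is 46.4% against 47.2% of genes tested.

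Genes of mitochondrial biogenesis linked to GA-binding protein were higher at 7 of 8, against 58.6% of all genes, with a median log2 change of 0.18 against 0.043. With 1 array left out, 6 to 8 were higher and the median ran from 0.16 to 0.23. None passed the adjusted threshold (limma), and 1 had an unadjusted p under 0.05, higher, against 6.19% of all genes. Tfb1m, a methyltransferase of mitochondrial ribosomal RNA, read -1.63 and -1.70 in control and -1.25 and -0.98 in G2-EC-KO, a change of 0.55 (SE 0.14; limma, adjusted p = 0.418). Both G2-EC-KO arrays were higher. The mitochondrial transcription factor gene Tfam had 0.30 (SE 0.12; limma, adjusted p = 0.528) and its partner gene Tfb2m had 0.29 (SE 0.13; limma, adjusted p = 0.540). Serum response genes that Elk3 and Elk4 help control were higher at 6 of 6, against 58.6% of all genes, with a median of 0.082 against 0.043, and 0 had an unadjusted p under 0.05 (limma). Leaving out control replicate 1 gave 4 higher, and leaving out G2-EC-KO replicate 2 gave 3, with a median of 0.0067. The immediate early genes Egr1 and Fos had changes of 0.19 (SE 0.12; limma, adjusted p = 0.595) and 0.20 (SE 0.13; limma, adjusted p = 0.608). Fos moved between 0.076 and 0.33 with 1 array left out.

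**Figure D3:**
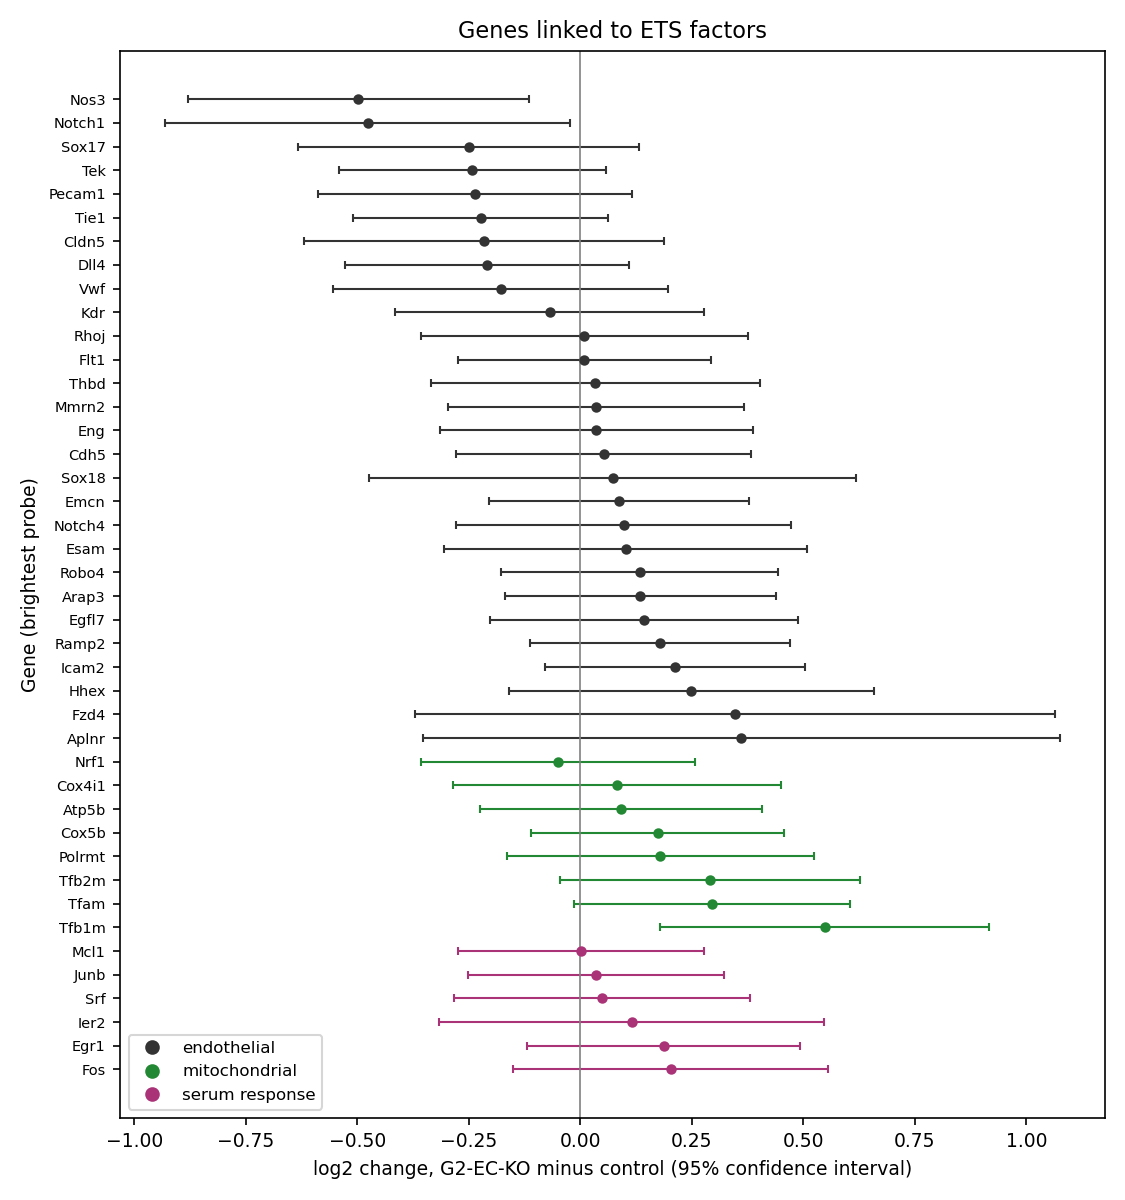
Log2 change, G2-EC-KO minus control (horizontal axis), of genes linked to ETS factors, at the brightest probe, with unadjusted 95% confidence intervals from limma and 2 arrays per group. Of the 28 endothelial genes in black, Nos3 and Notch1 have intervals below 0. Of the 8 mitochondrial genes in green, Tfb1m has an interval above 0, and the 6 serum response genes in magenta all include 0.

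Endothelial markers were all well above background on at least 2 arrays, and RNA of other heart cells was also present. Of 12 endothelial markers tested, 6 were higher and 6 lower, and the median log2 change was 0.0039. All of them but Fabp4 and Cd36 are also among the endothelial target genes above, at the same probes, so these lists are not separate readouts. Several ETS factors are also expressed in blood cells, so markers of those cells bear on the values above. Over all genes tested 58.6% were higher, and 57.7% to 58.4% with 1 array left out. Macrophage and monocyte markers were higher at 15 of 15, with a median of 0.33. Among them Ccr2 was well above background on both G2-EC-KO arrays and on neither control array. It thus passed the filter only through the group where it read higher, and its direction adds nothing to the count. Control replicate 1 was the lowest array for most of the 15 markers, and without that array 9 of 15 were higher with a median of 0.095. Ly6c2 made up 89.3% to 93.2% of their summed level, and the other 14 summed, in units of the 75th percentile, to 13.5 and 19.0 in control and 20.9 and 18.8 in G2-EC-KO. Sums of this kind add probes that differ in how well they bind, so a share is one of signal and not of RNA. Platelet and erythroid markers were higher at 8 of 8 tested, with a median of 0.58. Leaving out control replicate 1 gave 7 of 8 and a median of 0.25, and leaving out G2-EC-KO replicate 1 gave 5 of 8. The haemoglobin gene Hba-a1 made up 96.9% to 97.4% of their sum, and the other 7 summed to 2.22 and 2.32 against 4.17 and 2.05.

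Lymphocyte markers were lower at 8 of 10, with a median of -0.11 and summed levels of 1.87 and 1.01 against 1.42 and 1.13, and Cd3g and Cd8a were not well above background on at least 2 arrays. Without control replicate 1, 8 of the 10 were higher instead, with a median of 0.20, while leaving out G2-EC-KO replicate 2 gave 6 higher and a median of 0.018. Granulocyte markers, of which 5 were tested and Elane and Camp were not, had a median of 0.13 and sums of 12.3 and 6.46 against 13.6 and 9.14. Their median was 0.67 without control replicate 1, -0.28 without control replicate 2 and -0.10 without G2-EC-KO replicate 1. Cardiomyocyte markers were higher at 12 of 12, with a median of 0.39 and sums of 104 and 100.1 against 108 and 151. Leaving out G2-EC-KO replicate 2 gave 8 of 12 higher and a median of 0.083. Fibroblast markers were higher at 9 of 10 with a median of 0.20, and at 7 of 10 without control replicate 1 or without G2-EC-KO replicate 2. Markers of pericytes and smooth muscle were lower at 8 of 10 with a median of -0.13 and their lowest sum, 244, on G2-EC-KO replicate 2, and without that array 7 of 10 were higher with a median of 0.12. No marker of these lists passed the adjusted threshold (limma). The part of these cells in the ETS factor values was not tested. In such bulk RNA, fewer cells of a type and less RNA per cell cannot be told apart.

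At 16 of the 19 probes the change ranged more widely with 1 array left out than over the other settings, and at both Elf4 probes and A_52_P152283 of Gabpa it ranged less widely. Over 8 other settings of background, scaling, filter, values and model, all 19 probes kept the sign of their change. With 1 of the arrays left out, 10 probes turned their sign on at least 1 occasion, and 9 did not. Those 9 were Erg, both Elf4 probes, Elf2, A_52_P1034698 of Elf1, the brighter probes of Elk3 and Etv6, and A_52_P152283 and A_51_P364984 of Gabpa. The lowest adjusted p of any member probe in any of the 12 alternatives was 0.159 (limma).

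**Figure D4:**
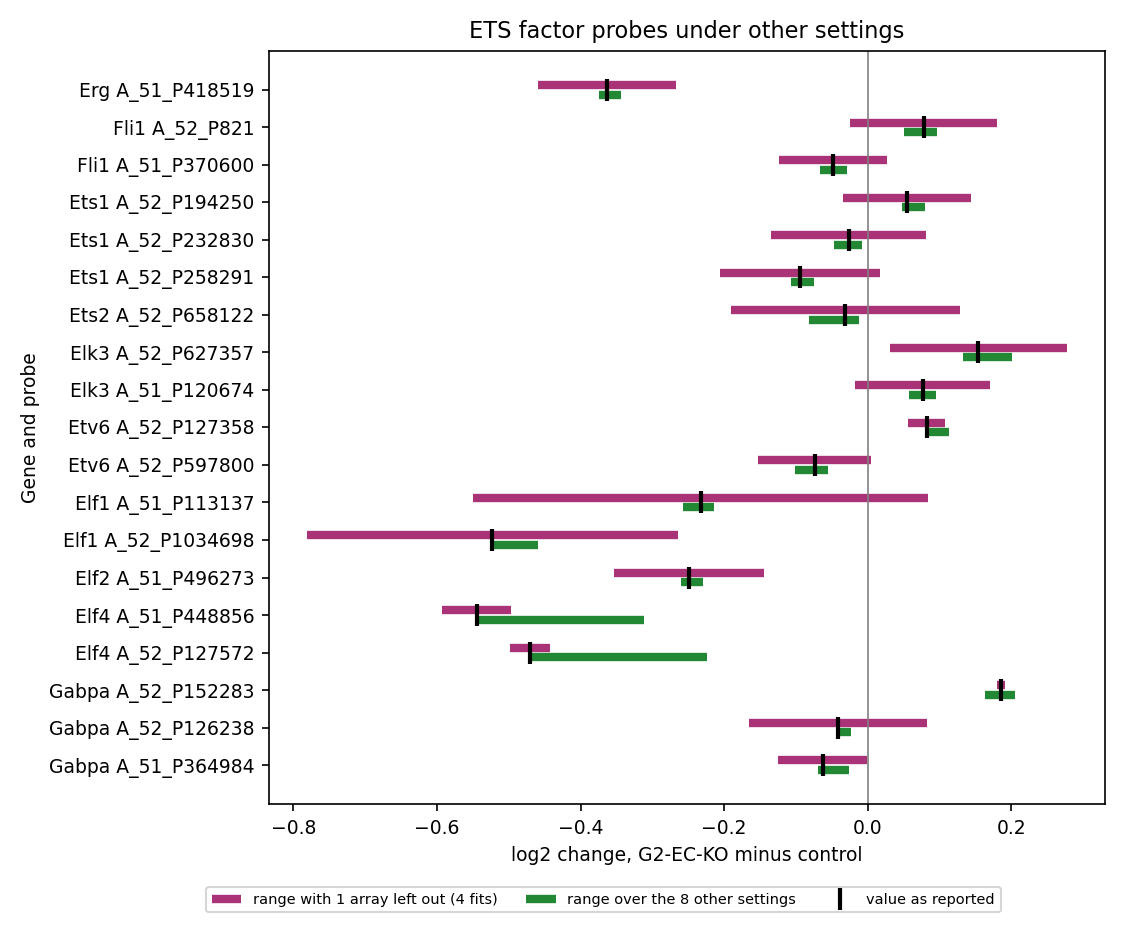
Range of the log2 change, G2-EC-KO minus control (horizontal axis), of each ETS factor probe with 1 array left out (magenta, 4 fits) and over the 8 other settings (green), beside the value as reported (black mark). The magenta bars of 10 probes cross 0, while the green bars stay on the side of the reported value. The widest green bars are those of the Elf4 probes, which reach -0.31 and -0.22.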

How the data were processed

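The arrays are Agilent 1-colour arrays read with Cy3, per the labels' protocols. The authors deposited spot intensity values on a linear scale, already corrected for background but with no scaling across arrays. Per the file headers they come from Feature Extraction 10.7.3.1 on design 014868, and per the submitters' processing notes from version 10.5. The deposited value table equals the median spot signal minus local background plus 16, and was an alternative only. After removal of control and outlier spots, processed signals were put on the log2 scale and each array's 75th percentile was subtracted. That percentile was 1415 and 1441 in control and 1290 and 1183 in G2-EC-KO; 63.8% to 66.5% of probes were well above background and 0 spots saturated.

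Probes well above background on at least 2 arrays, 26894 in all, were fitted on group with limma 3.58.1 in R 4.3.3, two-sided, with Benjamini-Hochberg adjustment. An exact permutation test of 2 against 2 cannot pass 0.05. Accessions were matched to RefSeq on GRCm38.p6, which named 26933 probes; Efna2, which once bore the symbol Elf1, was not taken. Normexp used median signals with an offset of 50, since no mean signal was given. The code was tested on simulated data. Members and lists were chosen with earlier results of these data known. Named were all members, Gata2 and up to 4 genes per list in order of p; Cdh5, Spi1, Etv2, Xist, the Y-linked genes and the single markers were named after their values were seen, and the lists without each array and the sums without the brightest marker were added then too. The numbers 1 and 2 are not said to pair samples. All arrays lay on 1 slide in 1 scan, with positions 1 and 2 for control and 3 and 4 for G2-EC-KO, so position and group cannot be told apart. The number of arrays limits the precision.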

Additional observations from a re-analysis of the deposited data

How the results depend on the processing

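There were 2 arrays per group, and the processed signal over background limits the dim probes, Elf4 among them. Member probes past the threshold stayed at 0 over the 8 other settings (limma). At an unadjusted p under 0.05 (limma) there were 3 member probes as reported, beside 2585 of all 26894 probes tested. Over the 8 other settings there were 2 to 4 member probes, beside 2508 to 2821 of all probes. The median change over the 10 genes lay between -0.11 and 0.11 with 1 array left out, and was -0.027 with the mean over all probes of a gene. Over all probes, 1 passed as reported, 2 with normexp correction, quantile normalization or median centring, and 0 without the filter on dim probes, with the filter on all 4 arrays, with an intensity trend or with the replicate block. That count lay between 0 and 8 with 1 array left out. As the replicate block, the replicate number changed no call of a member, and same-numbered arrays deviated together with a correlation of 0.044 over probes. With an array left out, the lone sample of its group is assumed to vary like the other group, and values that turned their sign lay between -0.025 and 0.18 for Fli1 A_52_P821, -0.12 and 0.027 for Fli1 A_51_P370600, -0.034 and 0.14 for Ets1 A_52_P194250, -0.13 and 0.081 for Ets1 A_52_P232830, -0.21 and 0.017 for Ets1 A_52_P258291, -0.19 and 0.13 for Ets2 A_52_P658122, -0.017 and 0.17 for Elk3 A_51_P120674, -0.15 and 0.0051 for Etv6 A_52_P597800, -0.55 and 0.084 for Elf1 A_51_P113137, -0.17 and 0.082 for Gabpa A_52_P126238, -0.28 and 0.046 for Gabpb2 A_51_P455694. The cause was not tested.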

Other observations

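Genes whose 250-base window before a start holds CCGGAAGT, a word bound strongly by many ETS factors, were counted after the values of the members were seen. Of the 652 such genes tested at their brightest probe, G2-EC-KO was higher at 402 and lower at 250, and the median log2 change was 0.064. Of the 10842 genes with any window, 6371 were higher and 4471 lower, with a median of 0.044. None of the 652 passed an adjusted p of 0.05 (limma), and at an unadjusted p under 0.05 there were 34 higher and 9 lower, beside 649 and 199 of the 10842.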
